A study of Mus musculus with 26 samples.

Results

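The 10 genes described here encode NF-κB subunits and proteins that restrain or modulate NF-κB signaling: *Nfkb1*, *Nfkb2*, *Relb*, *Nfkbia*, *Nfkbiz*, *Bcl3*, *Tnfaip3*, *Tnip1*, *Birc3* and *Zc3h12a*. They were found by symbol, 10 of the 56738 symbols in the gene counts. All 10 passed the filter on expression (mean normalized count over 10), as did 29.8% of all symbols. RNA was sequenced from primary keratinocytes of 2-day-old C57BL/6NJ mice, 5 wild-type (WT) and 8 homozygous for a CRISPR-Cas9 deletion of exon 3 of *Pla2g4d* (KO). *Pla2g4d* encodes a cytosolic phospholipase A2 of the epidermis. Both *Pla2g4d* alleles of the KO mice come from 1 line, and cells were grown for 4 days at 0.06 mM CaCl2. From each mouse, 1 library was made of untreated (basal) cells and 1 of treated cells, matched by the number in the sample titles. Treated cells were given 20 ng/ml IL17A together with 20 ng/ml TNFα for 24 h. Both genotypes share the strain, age and culture protocol, and the 26 libraries form 4 groups. The KO line was bred as homozygotes, and litter and culture batch are not in the labels, so that their differences and those of genotype cannot be told apart.

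NF-κB transcription factors are dimers that are held in the cytoplasm by IκB proteins until a signal leads to IκB degradation. Many of the genes they switch on encode inhibitors of the same pathway, so that signaling limits itself. TNFα is a strong activator of NF-κB in keratinocytes, and IL17A acts with it, in part by making target mRNAs more stable.

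Total counts were between 42072745 and 78102858 per library. The summed level of 8 keratinocyte markers was 48312 to 54269 CPM (TMM-normalized counts scaled to the library total) in basal and 39649.8 to 41503 CPM in treated libraries. The summed level of 5 melanocyte markers was 422 to 619 CPM in basal libraries, 325 to 466 CPM in treated WT and 298 to 395 CPM in treated KO libraries, with medians of 554, 536, 451 and 321 CPM in WT basal, KO basal, treated WT and treated KO libraries. The myeloid and Langerhans list summed to 3.4 to 20.2 CPM with *Cd207* at 0 in every library, and the T cell list reached 0.483 CPM at most with *Cd3g* and *Cd2* at 0. The fibroblast list summed to 1.69 to 7.43 CPM. The endothelial list summed to 1.04 to 4.45 CPM in basal and 3.22 to 5.86 CPM in treated libraries with *Cldn5* at 0. The mast cell list summed to 8.01 to 15.6 CPM, with *Kit* at 8.01 to 15.6 CPM and *Cpa3* and *Tpsb2* at 0 in every library. The part of these other cells in the values below was not tested, and in bulk RNA fewer cells of a type and less RNA per cell cannot be told apart. Counts of *Pla2g4d* take in exons outside the deletion and therefore do not check the genotype. They stood at 3.35 ± 1.36 CPM in WT basal and 2.06 ± 0.716 CPM in KO basal cells (SD, n = 5 and 8).

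The promoters of 3 members hold a match to the NF-κB consensus motif within 250 bases before the annotated start and are shown for this match. *Relb* (chr7:19363424-19363673), *Nfkbia* (chr12:55539433-55539682) and *Tnfaip3* (chr10:18891187-18891436) all lie on the minus strand of GRCm39. The sequences run 5′ to 3′ on the coding strand and end 1 base before the start of the canonical GENCODE transcript. Capitals mark the match.
Relb: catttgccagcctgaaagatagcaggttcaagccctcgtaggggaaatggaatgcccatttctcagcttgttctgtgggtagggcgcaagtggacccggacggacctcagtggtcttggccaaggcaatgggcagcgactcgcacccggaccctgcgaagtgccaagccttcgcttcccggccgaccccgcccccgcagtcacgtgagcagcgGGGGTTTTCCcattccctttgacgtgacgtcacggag
Nfkbia: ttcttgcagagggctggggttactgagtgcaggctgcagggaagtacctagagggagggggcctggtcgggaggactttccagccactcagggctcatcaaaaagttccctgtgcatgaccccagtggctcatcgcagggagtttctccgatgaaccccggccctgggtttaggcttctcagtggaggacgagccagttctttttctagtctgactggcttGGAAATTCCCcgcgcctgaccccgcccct
Tnfaip3: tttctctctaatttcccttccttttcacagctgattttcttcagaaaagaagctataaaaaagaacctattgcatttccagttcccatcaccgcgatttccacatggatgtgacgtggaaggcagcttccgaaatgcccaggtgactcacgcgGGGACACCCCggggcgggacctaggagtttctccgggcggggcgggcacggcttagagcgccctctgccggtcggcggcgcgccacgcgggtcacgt

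The match lies 37 to 28 bases before the start in *Relb* and reads GGGGTTTTCC on the coding strand. In *Nfkbia* it lies 29 to 20 bases before the start and reads GGGAATTTCC on the opposite strand. In *Tnfaip3* it lies 97 to 88 bases before the start, reads GGGACACCCC and matches on both strands. The consensus was present in 7.62% of 21751 promoters of protein-coding genes of the same length, with both strands searched. For the other 7 members, these letters of the consensus are not in this window. Alternative starts and enhancers were not searched, and a match describes letters and not binding.

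The members sit on 9 chromosomes. *Relb* (chromosome 7, 19339017 to 19363425) and *Bcl3* (19541553 to 19557570) share chromosome 7, both on the minus strand with 178127 bases between them. Exons of *Tnip1* overlap those of *Gpx3* on the opposite strand over 2603 bases, 25.3% of the exon length of *Tnip1*. Those of *Nfkb2* overlap *Psd* over 1933 bases (24.5%). The library was strand-specific, but the strand setting of the counting is not given in the sources used here, so reads of these pairs may be shared. *Gpx3* was at 4.76 ± 0.785 CPM in WT basal, 6.24 ± 1.32 in treated WT, 4.99 ± 0.485 in KO basal and 12.7 ± 0.736 CPM in treated KO libraries (SD). *Psd* had group means between 0.742 and 1.14 CPM.

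Levels of different genes were compared as CPM per kilobase of exon. The length was the union of exons of all annotated transcripts, from 1937 bases in *Nfkbia* to 12848 in *Nfkb1*. The transcripts expressed were not determined, so the order of genes depends on this length. Without it, *Nfkbia* and *Nfkb1* were at means of 148 and 116 CPM in WT basal cells. In WT basal cells *Nfkbia* was far above the others at 76.5 ± 5.0 CPM per kb (SD, n = 5), followed by *Nfkbiz* at 21.2 ± 2.29. *Zc3h12a* (9.15 ± 0.353) and *Nfkb1* (9.0 ± 0.553) did not differ beyond their spread, nor did *Bcl3* (4.57 ± 0.511) and *Tnip1* (4.25 ± 0.349). *Nfkb2* stood at 6.94 ± 0.367 and *Relb* at 5.94 ± 0.56 CPM per kb. The lowest were *Tnfaip3* at 3.38 ± 0.184 and *Birc3* at 2.3 ± 0.162 CPM per kb. With cytokines, *Zc3h12a* (55.0 ± 3.17) passed *Nfkbiz* (45.8 ± 3.62) in WT cells, *Tnfaip3* (12 ± 1.36) came level with *Nfkb1* (12.4 ± 0.669), and *Bcl3* was last at 4.5 ± 0.254 CPM per kb. In KO basal cells the means of *Tnfaip3* (5.05 ± 0.476 CPM per kb) and *Bcl3* (4.35 ± 0.677) stood in the reverse order of WT basal cells, with ranges that overlapped.

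**Figure D1:**
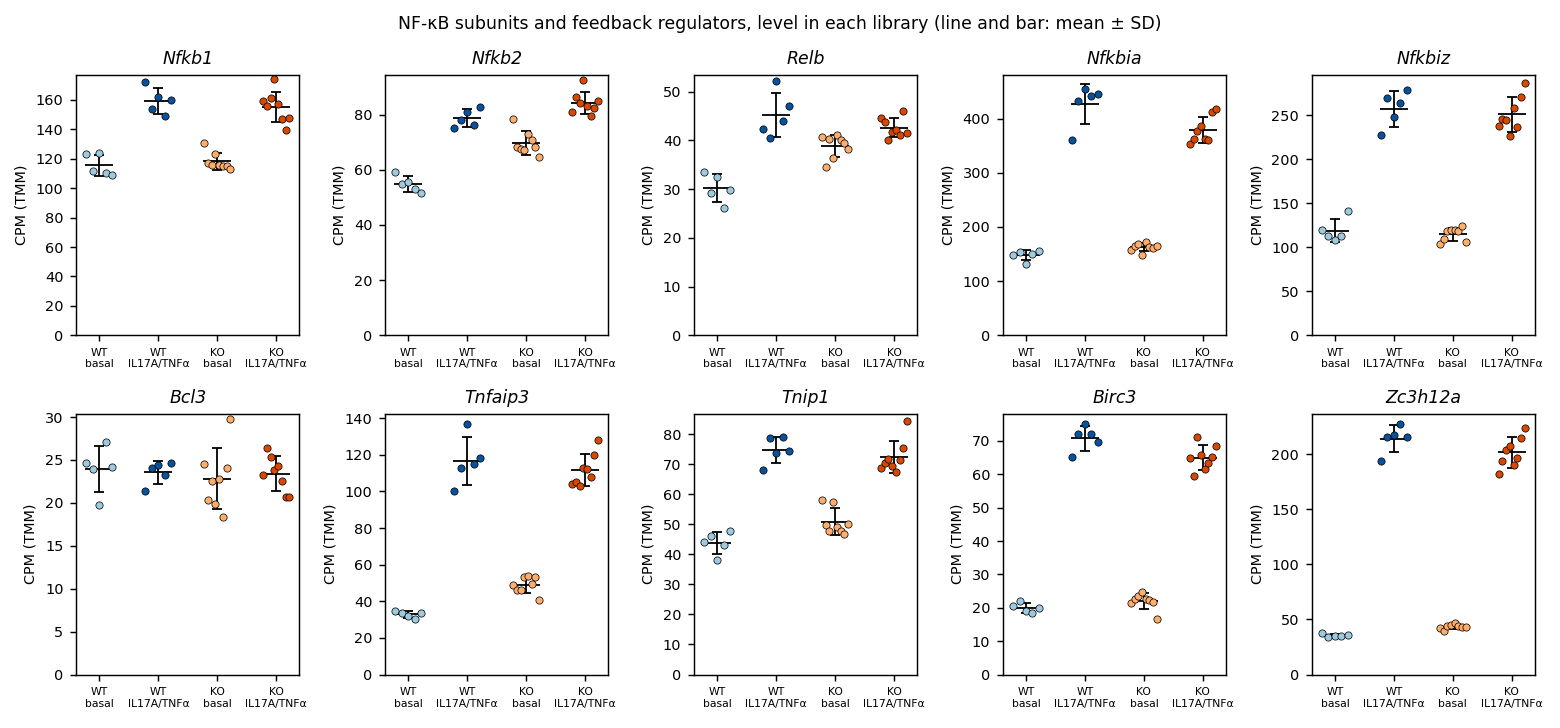
Level of each member in every library, as TMM-normalized CPM on a linear axis from 0. Points are libraries (WT n = 5, KO n = 8 per condition), and lines and bars are the mean ± SD. Basal and treated points separate widely for *Nfkbia*, *Tnfaip3*, *Birc3* and *Zc3h12a* and lie at the same height for *Bcl3*, and the KO basal points of *Tnfaip3* (40.7 to 54.0 CPM) all lie above those of WT.

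The first comparison asked how each genotype responded to IL17A and TNFα. In WT cells 9 of 10 members rose and *Bcl3* did not pass the test. A rise here means an adjusted p under 0.1 (quasi-likelihood test of edgeR, p adjusted after Benjamini and Hochberg over 16893 genes). Of these genes, 18.8% rose by that rule. With the added threshold of a 1.5-fold change, 6 members were called higher, against 8.65% of all genes. The median log2 fold change was 0.94 over the members and 0.01 over all genes. In KO cells 9 members rose (17.7% of all genes) and 5 were called (6.33%), with a median of 0.82 over the members and 0 over all genes. Treated and basal libraries did not overlap for 9 members in WT cells, where 10.5% of all genes had every treated library above every basal one. In KO cells the groups did not overlap for 8 members (6.52% of all genes).

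Among the subunits, *Nfkb1* and *Nfkb2* encode the precursors p105 and p100, which are processed to the DNA-binding subunits p50 and p52. *Nfkb1* was at 123, 112, 124, 110.2 and 109 CPM in WT basal libraries 1 to 5 and at 172, 154, 162, 149 and 160 CPM in the treated ones. In KO libraries it ranged from 113 to 131 CPM (median 116) at baseline and from 139.6 to 174 CPM (median 156) with cytokines. In both genotypes every treated library was above every basal one. The log2 fold changes were 0.46 ± 0.05 in WT (SE, adjusted p = 5.91e-08) and 0.39 ± 0.04 in KO (adjusted p = 1.59e-08), both under 1.5-fold.

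*Nfkb2* was at 59.2, 54.8, 55.5, 53.0 and 51.6 CPM in WT basal libraries and at 75.3, 78.2, 81.0, 76.1 and 82.8 CPM in the treated ones. In KO libraries it ranged from 64.5 to 78.6 CPM (median 68.4) at baseline and from 79.6 to 92.5 CPM (median 83.7) with cytokines. The treated libraries of each genotype lay above its basal ones, and the highest KO basal library lay within the range of treated WT cells. *Nfkb2* rose by a log2 fold change of 0.52 ± 0.05 in WT (adjusted p = 1.83e-09) and 0.27 ± 0.04 in KO cells (adjusted p = 2.67e-06).

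*Relb* encodes the partner of p52 in the alternative NF-κB pathway. It was at 33.5, 29.1, 32.4, 26.2 and 29.9 CPM in WT basal libraries and at 42.4, 40.5, 52.2, 44.0 and 47.0 CPM in treated ones. KO basal libraries ranged from 34.5 to 41.0 CPM (median 39.7) and treated KO libraries from 40 to 46 CPM (median 42). The WT groups were apart, while the KO groups overlapped in a narrow band. The log2 fold change was 0.58 ± 0.07 in WT cells (adjusted p = 7.72e-08), just under the fold threshold, which it passed without WT mouse 1 (0.63) or WT mouse 2 (0.59). In KO cells it was 0.13 ± 0.05 (adjusted p = 0.059), and the adjusted p was 0.1 to 0.184 without KO mouse 2, 4, 7 or 8.

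The IκB family was led by *Nfkbia*, which encodes IκBα, the inhibitor that is resynthesized after NF-κB activation. Its levels were 149, 154, 132, 149.8 and 156 CPM in WT basal libraries and 361, 433, 455, 442 and 445 CPM in treated ones. In KO libraries they ranged from 148 to 172 CPM (median 163) at baseline and from 354 to 418 CPM (median 369) with cytokines. Every treated library was over 2-fold above any basal one, and treated WT library 1 lay apart below the other 4. *Nfkbia* rose 2.88-fold in WT (log2 1.53 ± 0.06, adjusted p = 2.04e-17) and 2.33-fold in KO cells (1.22 ± 0.05, adjusted p = 5.56e-18).

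*Nfkbiz* encodes IκBζ, a nuclear IκB protein required for part of the IL17 response of keratinocytes. It was at 119, 113, 108, 113 and 141 CPM in WT basal and at 227, 269.6, 248, 264 and 279 CPM in treated WT libraries. The KO ranges were 104 to 124 CPM (median 118) and 226 to 287 CPM (median 245). Treated and basal libraries were apart in each genotype, and the genotypes overlapped in both conditions. *Nfkbiz* rose 2.16-fold in WT (1.11 ± 0.07, adjusted p = 3.08e-13) and 2.19-fold in KO cells (1.13 ± 0.06, adjusted p = 9.92e-16).

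*Bcl3* encodes a nuclear IκB protein that binds p50 and p52 dimers. Its WT levels were 24.6, 24.0, 19.7, 27.1 and 24.2 CPM at baseline and 21.4, 24.1, 24.4, 23.2 and 24.7 CPM with cytokines. In KO libraries it ranged from 18.4 to 29.8 CPM (median 22.7) and from 20.7 to 26.4 CPM (median 23.5). All 4 groups overlapped. The log2 fold change was -0.02 ± 0.10 in WT (adjusted p = 0.902) and 0.04 ± 0.08 in KO cells (adjusted p = 0.803).

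The inhibitors that act on ubiquitin chains upstream of the IκB kinases were next. *Tnfaip3* encodes A20, a ubiquitin-editing enzyme, and had 34.8, 33.7, 32.2, 30.1 and 33.4 CPM in WT basal and 100.1, 113, 137, 115 and 118 CPM in treated WT libraries. KO basal libraries 1 to 8 held 48.7, 46.4, 46.0, 53.5, 54.0, 49.3, 53.3 and 40.7 CPM, and treated KO libraries ranged from 103 to 128 CPM (median 109.8). The lowest KO basal library was above the highest WT basal one, whereas the treated KO libraries lay within the range of the treated WT ones. *Tnfaip3* rose 3.55-fold in WT (1.83 ± 0.08, adjusted p = 9.66e-17) and 2.27-fold in KO cells (1.19 ± 0.06, adjusted p = 2.19e-15).

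*Tnip1* encodes ABIN1, a partner of A20. It was at 44.1, 46.0, 38.2, 43.0 and 47.6 CPM in WT basal and at 68.1, 78.7, 73.7, 78.9 and 74.2 CPM in treated WT libraries. The KO ranges were 46.6 to 58.2 CPM (median 49.5) and 67.5 to 84.4 CPM (median 70.8). Treated libraries were above basal ones in each genotype. *Tnip1* rose 1.71-fold in WT (0.77 ± 0.07, adjusted p = 4.04e-10) and 1.42-fold in KO cells (0.51 ± 0.05, adjusted p = 1.22e-08). With the 1.5-fold threshold it was called in WT and not in KO cells, and the difference between these changes is given with the interactions below.

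*Birc3* encodes cIAP2, a ubiquitin ligase of the TNF receptor complex. Its levels were 20.4, 22.1, 19.0, 18.4 and 19.8 CPM in WT basal and 65.1, 72.1, 75.2, 72.1 and 69.8 CPM in treated WT libraries. In KO libraries they ranged from 16.6 to 24.7 CPM (median 22.4) and from 59.5 to 71.2 CPM (median 65.0). Treated and basal libraries were far apart, while the genotypes overlapped in each condition. *Birc3* rose 3.55-fold in WT (1.83 ± 0.07, adjusted p = 3.12e-17) and 2.97-fold in KO cells (1.57 ± 0.06, adjusted p = 2.08e-18). Its paralog *Birc2* fell in both genotypes (log2 -0.53 and -0.20, adjusted p = 4.98e-06 and 0.0184), both under 1.5-fold (the WT change passed it at -0.59 without WT mouse 1), and reads of near-identical stretches cannot be assigned with certainty. In basal cells the log2 fold change of *Birc2* in KO over WT was -0.37 ± 0.07 (adjusted p = 0.000748).

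*Zc3h12a* encodes regnase-1, an RNase that degrades inflammatory mRNAs, and had the largest fold change of the 10 members in both genotypes. It was at 37.9, 34.2, 35.2, 35.1 and 35.6 CPM in WT basal and at 194, 216, 217, 227 and 216 CPM in treated WT libraries. The KO ranges were 39.5 to 47.0 CPM (median 43.8) and 182 to 224 CPM (median 200.2). The KO basal libraries were all slightly above the WT basal ones. *Zc3h12a* rose 6.01-fold in WT (2.59 ± 0.05, adjusted p = 3.84e-24) and 4.62-fold in KO cells (2.21 ± 0.04, adjusted p = 2.89e-25).

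**Figure D2:**
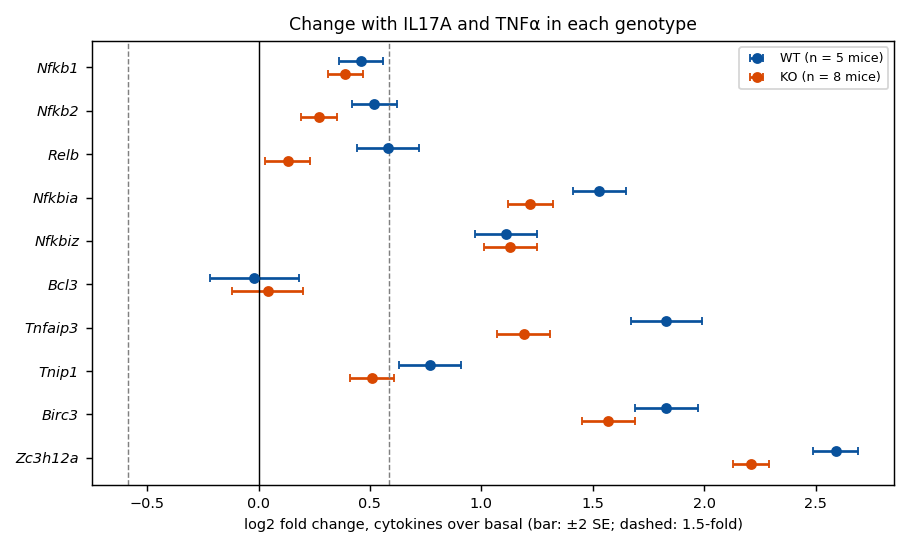
Fitted log2 fold change of each member with cytokines over basal, for WT (n = 5 mice) and KO (n = 8 mice). Bars span 2 SE to each side and dashed lines mark a 1.5-fold change, and the KO point lies left of the WT point for 8 of 10 members, the exceptions being *Nfkbiz* and *Bcl3*.

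The second comparison asked how the genotypes differed within each condition. In basal cells 5 members were higher in KO than in WT cells by the adjusted p: *Nfkb2*, *Relb*, *Tnfaip3*, *Tnip1* and *Zc3h12a*. Of all genes tested, 7.57% were higher by that rule. With the 1.5-fold threshold added, 0 members were called by edgeR or DESeq2, against 2.68% of all genes. In edgeR 7 members had an unadjusted p under 0.05. The share of all genes by that rule was not computed and is at least the 13.6% that passed the adjusted p in either direction. The count is therefore not read against all genes. The median log2 fold change of the members was 0.18, compared with 0 for all genes. For 4 members, *Nfkb2*, *Relb*, *Tnfaip3* and *Zc3h12a*, every KO basal library was above every WT basal one, as for 1.91% of all genes.

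*Tnfaip3* showed the largest of these differences, 49.0 ± 4.62 CPM in KO against 32.9 ± 1.78 CPM in WT basal cells (SD), a log2 fold change of 0.58 ± 0.07 (SE, adjusted p = 2.31e-06). At 1.49-fold it lay just under the threshold and passed it without WT mouse 1 or 2 or KO mouse 2, 3 or 8 (0.59 to 0.61). The alternative pathway genes followed, with *Relb* at 0.36 ± 0.06 (adjusted p = 0.000241) and *Nfkb2* at 0.35 ± 0.05 (adjusted p = 6.9e-06). *Zc3h12a* was higher by 0.29 ± 0.05 (adjusted p = 0.000132). *Tnip1* was higher by 0.22 ± 0.06 (adjusted p = 0.0244), but this was lost without WT mouse 3, the lowest basal library (adjusted p = 0.119).

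The other 5 members did not pass the test at baseline. *Nfkbia* stood at 0.13 ± 0.05 (adjusted p = 0.128), with an adjusted p of 0.0839 without WT mouse 1 and 0.0777 without KO mouse 4. *Birc3* stood at 0.14 ± 0.07 (adjusted p = 0.222) and had an adjusted p of 0.0277 without KO mouse 8, whose basal library was the lowest at 16.6 CPM. *Nfkb1* (0.03 ± 0.05), *Nfkbiz* (-0.05 ± 0.06) and *Bcl3* (-0.07 ± 0.09) had adjusted p values of 0.741, 0.692 and 0.71.

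With cytokines, 0 members differed between the genotypes by the adjusted p in edgeR (2.84% of all genes did), and 0 were called (0.704% of all genes). In that comparison 2 members, *Nfkbia* and *Nfkb2*, had an unadjusted p under 0.05. The share of all genes by that rule was not computed and is at least 2.84%, so this count is not read against all genes. Of the members, 1, *Nfkbia*, passed the adjusted p in DESeq2. The log2 fold changes lay between -0.17 and 0.10 with a median of -0.06, compared with -0.01 for all genes, and were negative for 9 of 10 members. The treated libraries of the genotypes overlapped for all 10 members, whereas 0.651% of all genes had every KO library above every WT one and 0.432% the reverse. *Nfkbia* had the largest, -0.17 ± 0.05 (adjusted p = 0.105), between means of 427 ± 38.1 CPM in treated WT and 379 ± 24.5 CPM in treated KO libraries (SD). Without WT mouse 1, whose treated library was the lowest of its group for 8 of 10 members, the difference was -0.22 (adjusted p = 0.00595). It was -0.19 without KO mouse 7 or 8 (adjusted p = 0.0902 and 0.045). The same omission of WT mouse 1 raised the share of all genes called in this comparison from 0.704 to 3.31%.

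**Figure D3:**
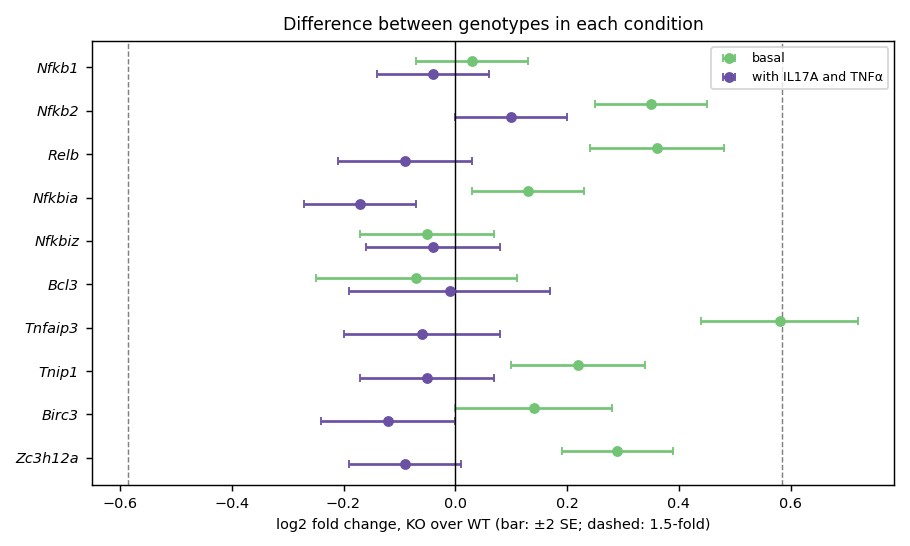
Fitted log2 fold change of KO over WT for each member, in basal cells and with IL17A and TNFα. Bars span 2 SE to each side and dashed lines mark a 1.5-fold change. Basal points lie right of 0 for 8 of 10 members, all but *Nfkbiz* and *Bcl3*, while all 10 treated points lie between -0.17 and 0.10. The basal difference passed the adjusted p for *Nfkb2*, *Relb*, *Tnfaip3*, *Tnip1* and *Zc3h12a*.

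The third comparison asked whether the change with cytokines differed between the genotypes, as the interaction of both factors. The change was smaller in KO cells for 5 members by the adjusted p, against 0.781% of all genes: *Tnfaip3*, *Relb*, *Zc3h12a*, *Nfkbia* and *Nfkb2*. Only *Tnfaip3* was also called with the 1.5-fold threshold, where 0.184% of all genes were called in that direction. The interaction shares its libraries with the comparisons above, so it is the difference of values already given and not a further observation. The median over the members was -0.26, compared with -0.01 over all genes.

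*Tnfaip3* had the largest interaction, -0.64 ± 0.10 on the log2 scale (SE, adjusted p = 0.00201). Within mice its log2 change was 1.52, 1.74, 2.08, 1.93 and 1.83 in WT mice 1 to 5. It was 1.09, 1.17, 1.16, 1.08, 1.05, 1.13, 1.17 and 1.65 in KO mice 1 to 8. KO mouse 8 alone reached the WT range, and the other 7 were below every WT mouse. Without WT mouse 3 the difference was -0.56 (adjusted p = 0.0115), under the fold threshold.

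*Relb* had an interaction of -0.45 ± 0.09 (adjusted p = 0.0101), with changes of 0.34, 0.48, 0.69, 0.74 and 0.65 in the WT mice and -0.01 to 0.34 in the KO mice. WT mouse 1 and KO mouse 2 met at the same value and the remaining mice did not overlap. *Zc3h12a* had an interaction of -0.38 ± 0.07 (adjusted p = 0.00408), with changes of 2.35 to 2.69 in WT and 2.01 to 2.38 in KO mice, where only WT mouse 1 fell within the KO range. The adjusted p of these 3 members stayed under 0.1 without any 1 mouse.

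*Nfkbia* (-0.31 ± 0.08, adjusted p = 0.0632) and *Nfkb2* (-0.25 ± 0.06, adjusted p = 0.0717) were less stable. Both lost the adjusted p without WT mouse 2, 3, 4 or 5 or KO mouse 1, 2, 3, 5 or 6, and *Nfkb2* also without KO mouse 7, with adjusted p values of 0.104 to 0.334. *Tnip1* (-0.27 ± 0.09, adjusted p = 0.251) and *Birc3* (-0.26 ± 0.09, adjusted p = 0.303) did not pass the test. *Birc3* passed it without KO mouse 8 (-0.31, adjusted p = 0.0444). *Nfkb1* (-0.07 ± 0.07), *Bcl3* (0.06 ± 0.13) and *Nfkbiz* (0.02 ± 0.09) had adjusted p values of 0.835, 0.957 and 0.985.

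**Figure D4:**
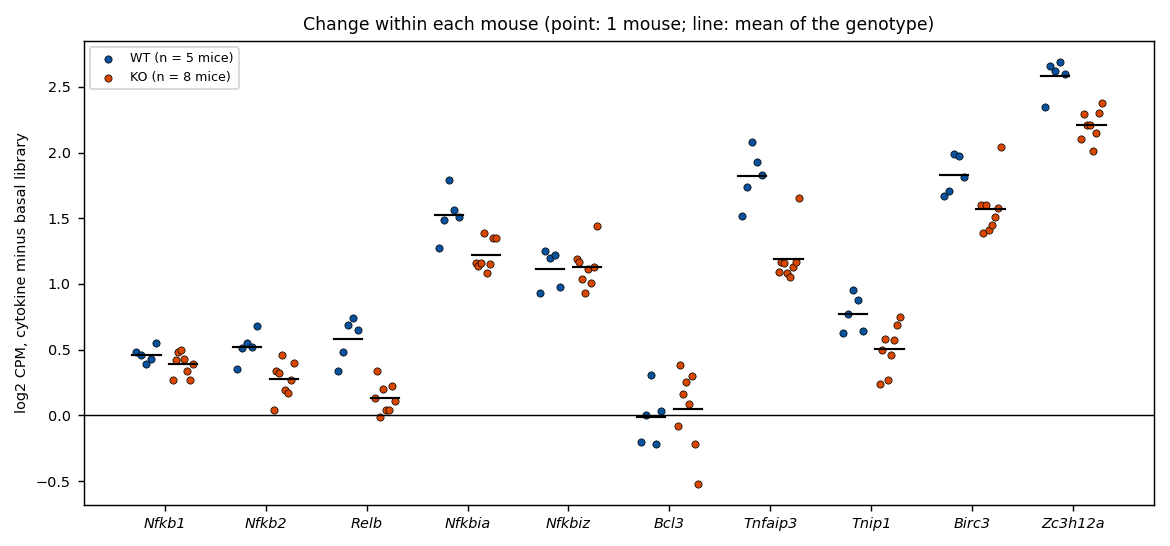
Change with cytokines within each mouse, as log2 CPM of the treated minus the basal library. Points are mice (WT n = 5, KO n = 8) and lines are the means of each genotype. For *Tnfaip3* 7 of 8 KO points lie at or below 1.17, all WT points lie at or above 1.52, and KO mouse 8 lies at 1.65. The ranges of both genotypes overlap or meet for every member.

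The rest of the pathway was followed through lists of 67 genes, of which 65 passed the filter. With cytokines 14 were called higher and 0 lower in WT cells (8.65% and 5.26% of all genes), and 15 higher and 0 lower in KO cells (6.33% and 4.55%). None of the remaining subunits was called. *Rela*, encoding p65, rose by a log2 fold change of 0.28 ± 0.04 in WT cells (adjusted p = 2.09e-06), under 1.5-fold. In KO cells its change was 0.06 ± 0.03 (adjusted p = 0.157), and its interaction was -0.22 ± 0.05 (adjusted p = 0.0429). At baseline *Rela* was higher in KO than in WT cells by 0.14 ± 0.04 (adjusted p = 0.0172). Of 3 further IκB genes, *Nfkbid* (0.90 in WT and 0.77 in KO) and *Nfkbie* (0.90 and 0.70) were called in both genotypes. Their basal group means were low, between 1.1 and 1.49 CPM. *Nfkbid* was not called in WT without WT mouse 4 (adjusted p = 0.141) or in KO without KO mouse 3 (adjusted p = 0.109). Among 12 IκB kinase and upstream kinase genes, *Ikbke*, encoding IKKε, was the 1 called gene (1.14 ± 0.06 in WT, adjusted p = 6.38e-15, and 1.09 ± 0.05 in KO, adjusted p = 5.79e-17).

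Of 13 TRAF, cIAP and adaptor genes, *Cflar*, an inhibitor of caspase-8, was the 1 called gene (0.92 and 0.79). Of 12 ubiquitin-editing genes the A20 partner *Tnip3* was the 1 called gene, at means of 0.0754 CPM in WT basal and 2.35 CPM in treated WT libraries, and 0.0975 and 2.11 CPM in KO. Of 10 mRNA decay and stability genes, the regnase-1 relative *Zc3h12c* was called in WT (1.22) and KO cells (1.09). *Zc3h12d* was called in KO cells as well, at means of 0.127 and 0.398 CPM (adjusted p = 0.088). That call was lost without any of 7 of the 8 KO mice, all but KO mouse 6, and with no filter or filterByExpr (adjusted p = 0.107 to 0.18). Of 13 target genes 8 were called in each genotype. The largest changes were those of *Lcn2*, encoding the iron-sequestering protein lipocalin-2 (5.97 and 5.61), and *Csf2*, encoding GM-CSF (5.47 ± 0.74 and 5.23 ± 0.56). *Csf2* was near 0 in basal cells, at means of 0.0668 CPM in WT and 0.0978 CPM in KO libraries. *Cxcl2*, a neutrophil chemokine at a mean of 0.248 CPM in WT basal libraries, followed in WT cells (4.18 ± 0.43). In KO cells *Cxcl1* and *Cxcl2* followed (both 2.82).

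At baseline 6 of the 65 list genes were called higher in KO and 0 lower, against 1.61% and 1.07% of all genes. Target genes made up 5 of these, namely *Cxcl2* (1.55 ± 0.40), *Tnf* (1.29 ± 0.16), *Cxcl1* (1.07 ± 0.15), *Csf3* (0.88) and *Ptgs2* (0.65). The target list was written with earlier results of these data known, so this count does not test the list. The study itself reports *Cxcl1*, *Cxcl2* and *Tnf* as higher in basal KO cells. *Csf3* was not called with the mouse as a replicate block (1.02, adjusted p = 0.133), with only the 2 groups compared, or without WT mouse 2, 3 or 4 or KO mouse 1 (adjusted p = 0.121 to 0.222). *Cxcl2*, at low basal means of 0.248 CPM in WT and 0.708 CPM in KO libraries, was not called with only the 2 groups compared (adjusted p = 0.119). The sixth was *Arid5a*, encoding an mRNA-stabilizing protein, at 22.7 ± 2.96 CPM in basal WT libraries against 34.0 ± 5.04 CPM in basal KO ones (0.59 ± 0.10, adjusted p = 0.000192). It lay at the fold threshold and fell just under it (0.53 to 0.58) with DESeq2 size factors, DESeq2, limma, no filter, filterByExpr or only the 2 groups compared, and without WT mouse 2 or 4 or KO mouse 4, 5 or 7. It was also not called at a fold over 2. By the adjusted p alone, 14 list genes were higher in basal KO cells and 5 lower, where 13.6% of all genes passed in either direction. The lower ones were *Tnip2* (-0.53 ± 0.13, adjusted p = 0.00753), *Map3k8* (-0.52 ± 0.15, adjusted p = 0.026), *Card14* (-0.42 ± 0.08, adjusted p = 0.000573), *Rnf31* (-0.23 ± 0.07, adjusted p = 0.0263) and *Birc2*, given above. With cytokines 0 list genes were called between the genotypes in edgeR, where 2 passed the adjusted p. With the mouse as a replicate block, *Csf3*, encoding G-CSF, was called higher in treated KO cells (0.80, adjusted p = 0.0143), and also with DESeq2, the sex score, only the 2 groups compared, and without WT mouse 1 or KO mouse 8 (0.72 to 0.82). In the interaction 2 target genes were called lower, *Tnf* (-1.32 ± 0.21, adjusted p = 0.00251) and *Cxcl1* (-0.83 ± 0.20, adjusted p = 0.0484). *Tnf* stayed called with any 1 mouse left out, whereas *Cxcl1* was not called without WT mouse 3, 4 or 5 or KO mouse 3, 5 or 6 (adjusted p = 0.104 to 0.25).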

How the data were processed

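The authors aligned the reads of strand-specific libraries to mm39 with STAR (2.7.10b in the submitters' processing notes) and counted them per gene with featureCounts (2.0.6) and GENCODE. They deposited raw counts and log2 normalized counts. For the members, the deposited log2 values differed by at most 0.000249 from the log2 of the count over a size factor plus 1. For each library, 2 wells of cells from the same animal were pooled, and litter, batch and sex are not in the labels.

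With edgeR 4.0.16 (R 4.3.3), a quasi-likelihood model with 1 mean for each of the 4 groups was fitted to the counts of the 16893 genes whose mean normalized count exceeded 10, after TMM scaling, and p-values were adjusted over all these genes by the Benjamini-Hochberg method. Called means that the adjusted p was under 0.1 and the change exceeded 1.5-fold, the limits of the study's methods. The SE is the absolute log2 fold change divided by the root of its F value. CPM are TMM-normalized, with a prior count of 1 on the log2 scale. At 42072745 to 78102858 counts per library the spread between libraries of a group, more than counting error, limits the precision for the members. Counting error weighs more for list genes with few counts, such as *Zc3h12d*, and *Tnip3* and *Csf2* in basal cells. Libraries of a group differed by more than sampling noise (chi-square over its degrees of freedom at least 7.22).

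Both libraries with the same number and genotype in the sample titles were taken to come from the same mouse, which is the source of the pairing. The titles do not state this. Their deviations from the group means correlated by 0.00 to 0.25 (median 0.11). Alternatives were DESeq2 size factors, DESeq2 1.42.0, limma 3.58.1 with the deposited log2 values, filterByExpr or no filter, the mouse as a replicate block, a sex score as covariate, only the groups compared, other thresholds, and leaving out each mouse.

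The members and pathway lists were chosen with earlier results of these data known. All 10 members were named, and of each pathway list at most the 3 called genes with the largest change. *Rela*, *Birc2*, *Csf3*, *Ptgs2*, *Tnip2*, *Map3k8*, *Card14*, *Rnf31*, *Gpx3* and *Psd* were named outside this rule, after their values were seen. Exon lengths, positions and promoter sequences are from GRCm39 with GENCODE vM39, while the counts used an earlier GENCODE release.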

Additional observations from a re-analysis of the deposited data

Results flagged for a closer look

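For 4 of the 40 gene and group combinations, 1 library lay far from the others of its group by Dixon's criterion, and chance flags about 1 in 20 groups. *Nfkbia* was at 132 CPM in WT basal library 3 and at 361 CPM in treated WT library 1, each below the other 4. *Tnip1* was at 84.4 CPM in treated KO library 8, above the other 7. *Birc3* was at 16.6 CPM in KO basal library 8, below the other 7. KO mouse 8 thus stood out for 2 members, and it also had the largest change of *Tnfaip3* among the KO mice (1.65 on the log2 scale).

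The change with cytokines differed between the genotypes by the interaction test (edgeR, adjusted p under 0.1) for 5 members, with log2 differences of KO minus WT of -0.25 for *Nfkb2*, -0.45 for *Relb*, -0.31 for *Nfkbia*, -0.64 for *Tnfaip3* and -0.38 for *Zc3h12a*. Of the pathway lists, *Tnf* (-1.32, adjusted p = 0.00251) and *Cxcl1* (-0.83, adjusted p = 0.0484) were called lower, the latter not without any of 6 of the 13 mice. For *Tnfaip3*, *Relb*, *Zc3h12a* and *Nfkb2* the difference between genotypes in basal cells passed the test, and for these members and *Nfkbia* that in treated cells did not.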

How the results depend on the processing

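Of 1140 values of the members under the alternatives, 1100 kept their direction and their call (adjusted p and fold together). Of these, 34 values of 8 results crossed the adjusted p of 0.1, given in the report or here. The mouse as a replicate block changed no call of a member (voom duplicate correlation 0.14), and of the pathway lists it gave 1 called target, *Csf3*, between genotypes with cytokines in place of 0 and lost the basal call of *Csf3* (adjusted p = 0.133). Without a fold threshold, 9 members were called in KO with cytokines, 5 between genotypes in basal cells and 5 in the interaction. Of all genes 35.8, 13.6 and 0.983% were called in these comparisons. At an adjusted p under 0.05 and a fold over 2 the interaction count was 0. With no filter, *Nfkb2* and *Nfkbia* lost the interaction (adjusted p = 0.211 and 0.107). Leaving out 1 mouse gave 6 to 7 called members in WT with cytokines, 5 in KO, 0 to 1 in the basal comparison, 0 with cytokines, and 0 to 1 in the interaction (0 without WT mouse 3).

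The direction turned only for members that did not pass the test, with a mouse left out. *Bcl3* became 0.01 (without WT mouse 1) and 0.03 (WT 4) with cytokines in WT, and -0.01 (KO 2) and 0 (KO 6) in KO. Between genotypes with cytokines it became 0 (WT 2), 0.01 (WT 3, WT 5 or KO 7) and 0.02 (KO 8), and *Tnfaip3* 0 (WT 3). *Nfkbiz* became 0.01 in the basal comparison (WT 5), and -0.02 (WT 1 or WT 5) and -0.03 (KO 8) in the interaction. Over the mice left out, these results ranged from -0.11 to 0.03 and -0.01 to 0.12 for *Bcl3* in WT and KO, -0.09 to 0.01 at baseline and -0.03 to 0.05 in the interaction for *Nfkbiz*, and -0.04 to 0.02 for *Bcl3* and -0.11 to 0 for *Tnfaip3* between genotypes with cytokines. The causes were not tested.

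The pathway lists were also counted without a fold threshold. With cytokines in WT the calls were 1 for subunits, 4 for kinases, 9 for TRAF and cIAP, 5 for ubiquitin editing and 5 for mRNA decay. Of these, 1, 3, 6, 3 and 4 were higher, and 36.8% of all genes were called. In KO the calls were 5, 10 and 4 for kinases, TRAF and ubiquitin editing, with 3, 8 and 2 higher (35.8% of all genes). In basal cells they were 1, 1, 1, 5 and 4 for subunits, IκB, kinases, TRAF and ubiquitin editing. Of these, 1, 1, 0, 3 and 2 were higher in KO (13.6% of all genes). Between genotypes with cytokines 1 TRAF and 1 ubiquitin-editing gene were called, both lower in KO (2.84% of all genes). In the interaction the calls were 1 for subunits and 2 for TRAF, all negative (0.983% of all genes). At an adjusted p under 0.05 and a fold over 2, IκB and TRAF had 0 calls with cytokines in both genotypes, mRNA decay 1 in KO, and in basal cells mRNA decay 0 and targets 3, with 1 target in the interaction. mRNA decay had 1 call in KO with no filter or filterByExpr. In basal cells it had 0 with DESeq2 size factors, DESeq2, limma, no filter, filterByExpr and only the 2 groups compared, where targets had 3. Targets between genotypes with cytokines had 1 call with DESeq2, the sex score and only the 2 groups.

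Leaving out 1 mouse gave 1 to 2 calls for IκB (WT and KO), TRAF (WT) and mRNA decay (WT and KO) with cytokines. In basal cells it gave 0 to 1 for kinases, ubiquitin editing and mRNA decay and 4 to 5 for targets. The kinase and ubiquitin-editing calls were *Map3k8* (-0.61) and *Tnip2* (-0.61 and -0.63), lower in KO cells. For targets, leaving out 1 mouse gave 0 to 1 between genotypes with cytokines and 1 to 2 in the interaction, where *Cxcl1* was lost. Depth does not limit the members, all of which were over 16 CPM in every library.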

Other observations

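For the 5 members called with cytokines in both genotypes, the genes with the most similar pattern were sought as the smallest root-mean-square difference of log2 CPM over the 26 libraries, each gene centred on its mean. This is a description with no test, and the libraries form 4 groups, so that genes with similar responses to cytokines are close. The closest to *Nfkbia* were *Smox* (0.152) and *Rapgef3* (0.154), and to *Nfkbiz* *Slc11a2* (0.123) and *Pcdh7* (0.131). *Myo1d* (0.129) and *Lif* (0.149) were closest to *Tnfaip3*. *Aldh5a1* (0.157) and *Dsc2* (0.176) were closest to *Birc3*, and *Fth1* (0.147) and *Glul* (0.189) to *Zc3h12a*. Among the members, *Nfkb2* and *Relb* were the closest pair (0.115), and *Bcl3* and *Zc3h12a* the farthest apart (1.18).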
